A study of Gallus gallus with 18 samples.

Results

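The genes described here build and hold the extracellular matrix of the liver: collagens, laminins, the integrins that bind them, and 4 genes of stellate cells and fibroblasts. They were chosen by symbol in the array's annotation, as every collagen chain, laminin chain and integrin subunit with a numbered name, together with LUM, LRAT, RGS5 and PDGFRA. This gave 58 of the 11528 genes that the arrays measure under 1 symbol: 33 collagens, 8 laminins, 13 integrins and 4 stellate genes. Of these, 5 have more than 1 probe set, and the probe set with the highest mean signal stood for its gene.

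The study asked how meal of black soldier fly larvae (Hermetia illucens, HI), fed in place of soybean products and wheat, affects the liver of broiler chickens. Male Cobb 500 broilers, a fast-growing meat strain, received the diets from the age of 1 d for 35 d. The trial held 72 birds in cages of 4, and liver RNA was measured on 18 single-colour arrays, 6 per diet. The HI0 diet held no larvae meal, the HI7.5 diet 7.5% (75 g per kg) and the HI15 diet 15% (150 g per kg) of a partially defatted meal. All diets were balanced with synthetic amino acids, and all groups are of the same strain and sex. The labels do not say that each array is a different bird or cage, and the p-values therefore rest on the spread among these arrays, which may be technical.

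Collagens are trimers of alpha chains that form fibrils, such as type I, or sheets, such as type IV in basement membranes, where laminins join them as trimers of an alpha, a beta and a gamma chain. Integrins are receptors of an alpha and a beta subunit through which cells grip these proteins. In the liver, hepatic stellate cells store vitamin A in the space between sinusoids and hepatocytes and are known as the main makers of fibrillar collagen when the organ scars.

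Values are log2 signals, so a difference of 1 is a doubling. The signal of a probe set also depends on its probes, and levels are therefore compared between livers and never between genes. Hepatocyte markers were strong on every array, ALB with a mean of 14.5 and TTR of 13.97. Array medians lay between 7.23 and 7.31, and arrays correlated with each other at 0.966 to 0.990. The arrays differed in contrast: the SD over all probe sets ran from 1.77 in HI0 replicate 5 to 1.97 in HI7.5 replicate 3. Whole liver was measured, so fewer cells of a type and less RNA per cell cannot be told apart.

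No collagen, laminin, integrin or stellate gene changed with the diet once p-values were adjusted over all probe sets. In limma's moderated test, 0 of the 58 genes were called in HI15 against HI0, in HI7.5 against HI0, in HI15 against HI7.5, in the F test among the diets or in the slope over the meal level, where percent called over all genes was 0 each time. The smallest adjusted p of any member was 0.999. At an unadjusted p under 0.05, 1 member was higher in HI15 than in HI0, against 1.26% of all genes, and 0 were lower, against 1.49%. In HI7.5 against HI0 there was no such member in either direction, against 0.954% of all genes higher and 1.69% lower. The F test gave 1 member, against 2.36% of all genes, and the slope gave 1 higher, against 1.31%, and 0 lower, against 1.57%. The member in HI15 against HI0 and in the slope was the stellate gene PDGFRA. Of the 54 members outside the stellate group, 0 were higher and 0 lower in either. The stellate genes were known beforehand from these HI15 arrays, so nothing is read from the counts that hold PDGFRA. The comparisons of HI15 and of HI7.5 with HI0 share the HI0 arrays.

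In HI15 against HI0, 51 of the 58 genes had a difference whose 95% confidence interval stayed inside 1.5-fold in either direction. The same held for 55 in HI7.5 against HI0 and for 51 in HI15 against HI7.5. These are 87.9, 94.8 and 87.9% of the members, against 93.4, 93.5 and 93.5% of all genes. Of the 54 members outside the stellate group, 92.6, 96.3 and 94.4% stayed inside 1.5-fold in the same order. The stellate genes were known beforehand from these HI15 arrays, so nothing is read from the shares that hold them. All 58 intervals stayed inside 2-fold in each of these comparisons. All 8 laminins were within 1.5-fold in each comparison. Of the 4 stellate genes, 1, 3 and 0 were within 1.5-fold in the same order.

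**Figure D1:**
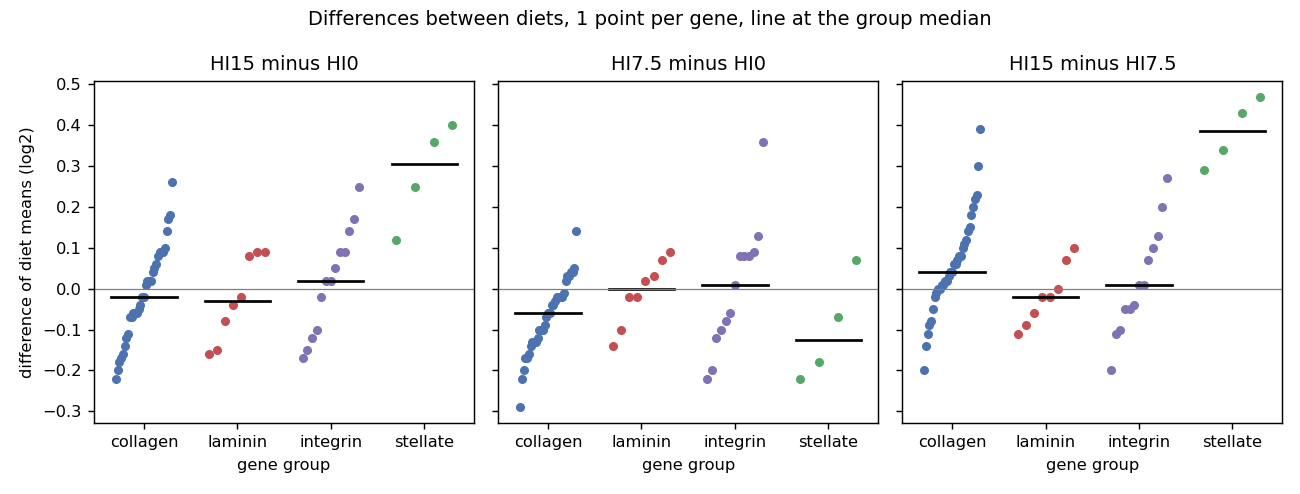
Differences of diet means (log2, vertical axis) for each of the 58 genes, sorted within the 4 gene groups, in 3 panels for HI15 minus HI0, HI7.5 minus HI0 and HI15 minus HI7.5; black lines are group medians. Collagen, laminin and integrin medians stay between -0.06 and 0.04 in all panels, and the 4 stellate genes lie between 0.12 and 0.40 in HI15 minus HI0.

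Of the 4 gene groups, the stellate genes, known beforehand from these HI15 arrays, had the highest median difference in HI15 against HI0. Their median difference was 0.31 in HI15 against HI0, with 4 of 4 above 0, and -0.12 in HI7.5 against HI0, with 1 of 4 above 0. The second median was 0.01 without HI0 replicate 6 and -0.21 without HI0 replicate 4. Over all genes the median difference was 0.00 in both, and 51.8% and 50% of genes lay above 0. These 4 genes had led a list of stellate markers that was called in HI15 against HI7.5 in earlier work on the same arrays. Their values in that comparison (median 0.38) are therefore a description. The comparisons with HI0 use the same HI15 and HI7.5 arrays, so the values there are a description too. Nothing is read from the rank of this group or from its counts above 0.

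LUM encodes lumican, a proteoglycan that binds collagen fibrils and sets their spacing. Its log2 signal had a lowest, median and highest value of 7.75, 8.19 and 9.21 in HI0, of 8.0, 8.16 and 8.54 in HI7.5, and of 8.32, 8.61 and 9.30 in HI15. The HI15 livers began above the middle of the HI0 livers, yet 1 HI0 liver, replicate 6, stood near the top of the HI15 range, and the groups overlapped. The difference of HI15 from HI0 was 0.40 ± 0.21 (SE; unadjusted p = 0.0679, adjusted p = 0.999 in limma), with a 95% interval of -0.03 to 0.84. Leaving out HI0 replicate 6 moved it to 0.59 and leaving out HI15 replicate 3 to 0.28.

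PDGFRA, a receptor for platelet-derived growth factor on fibroblasts and stellate cells, was the member with an unadjusted p under 0.05 in HI15 against HI0. Its lowest, median and highest signals were 6.29, 6.52 and 6.75 in HI0, 6.04, 6.65 and 7.03 in HI7.5, and 6.45, 6.83 and 7.37 in HI15. Replicates 1 and 6 of HI15 lay above every liver of the other diets, and the other HI15 livers lay within their range. The difference was 0.36 ± 0.16 (SE; unadjusted p = 0.0363, adjusted p = 0.999), and the slope was 0.24 ± 0.11 (SE) per 10 percentage points of meal (unadjusted p = 0.0343, adjusted p = 0.999).

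RGS5, a brake on G-protein signalling used as a pericyte and stellate cell marker, had lowest, median and highest signals of 9.18, 9.50 and 10.24 in HI0, of 8.83, 9.59 and 9.77 in HI7.5 and of 9.44, 9.82 and 10.31 in HI15. The 3 ranges overlapped, and the difference of HI15 from HI0 was 0.25 ± 0.20 (SE; adjusted p = 0.999), 0.16 without HI15 replicate 3 and 0.38 without HI0 replicate 6. LRAT, the enzyme that esterifies retinol for storage, had 7.72, 8.16 and 8.62 in HI0, 7.66, 7.91 and 8.19 in HI7.5, and 7.94, 8.27 and 8.56 in HI15. Here the highest liver of all was an HI0 liver, and the difference of HI15 from HI0 was 0.12 ± 0.15 (SE; adjusted p = 0.999), 0.04 without HI0 replicate 1 and 0.22 without HI0 replicate 6. Against HI7.5, HI15 was higher by 0.47 in LUM, 0.43 in RGS5, 0.34 in LRAT and 0.29 in PDGFRA.

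**Figure D2:**
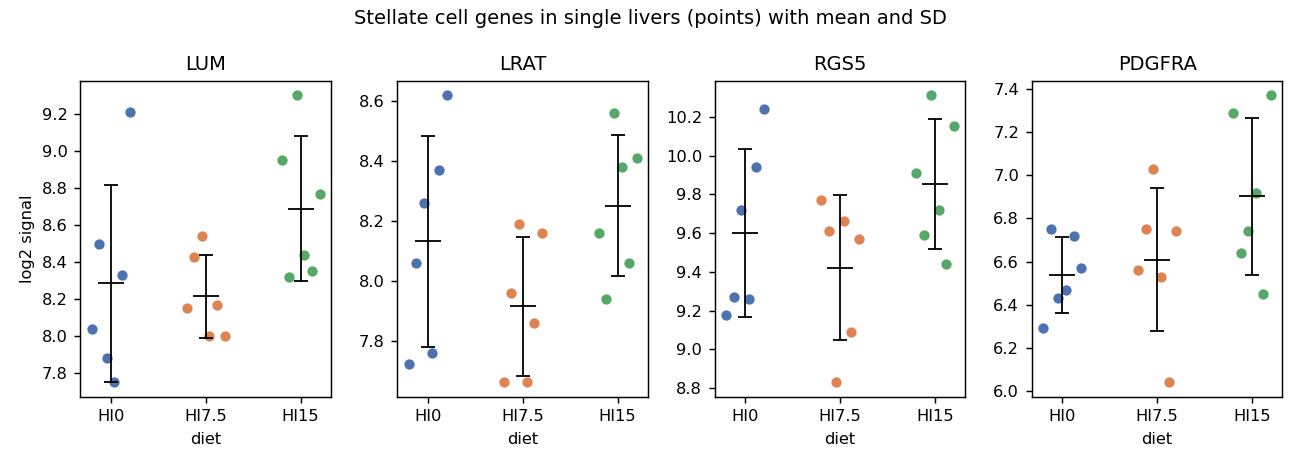
Log2 signals of LUM, LRAT, RGS5 and PDGFRA (vertical axes, 1 scale per gene) in the 6 livers of each diet (points), with the mean (short bar) and SD (whiskers). The highest HI0 liver lies inside the HI15 range for LUM, RGS5 and PDGFRA and above it for LRAT.

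Of 17 other stellate cell and fibroblast markers, 11 were measured, and their median difference was 0.02 in HI15 against HI0, 0.05 in HI7.5 against HI0 and 0.05 in HI15 against HI7.5, with 0 called in limma and 0 at an unadjusted p under 0.05. In HI15 against HI0, 8 of the 11 were above 0. SPARC, a matrix protein that binds collagen, was at 0.35 ± 0.21 (SE) there and HGF, a growth factor for hepatocytes, at 0.20 ± 0.19 (SE). PDGFRB, the other receptor for platelet-derived growth factor, was at 0.20 in HI15 against HI0, and VIM and THY1 were at 0.02 each. The 3 below 0 there were RELN, secreted by stellate cells in mammals, at -0.01, CYGB at -0.06 and NGFR at -0.08. The 4 genes were known from these HI15 arrays as the leaders of the marker list, so nothing is read from the lower median of the others. The mean of the 4 genes per liver, relative to HI0, ran from -0.33 to 0.52 in HI0, from -0.35 to 0.05 in HI7.5 and from -0.06 to 0.59 in HI15. That of the 11 other markers ran from -0.19 to 0.30, from -0.26 to 0.27 and from -0.10 to 0.33. The part of these markers in the values of the 4 genes was not tested.

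The collagens had a median difference of -0.02 in HI15 against HI0, with 16 of 33 above 0, against 51.8% of all genes. It was -0.06 in HI7.5 against HI0, with 7 of 33 above 0, against 50% of all genes. It was 0.04 in HI15 against HI7.5, with 24 of 33 above 0, against 51.2%. Without the 2 arrays at the extremes of principal component 1, the medians in HI7.5 against HI0 and in HI15 against HI7.5 were -0.02 and 0.01. The collagens share these arrays, and 13 of the 33 followed the contrast of the array (below). Their signs are therefore not independent, and nothing is read from these counts. The median in HI15 against HI0 was 0.01 after quantile normalization and 0.07 over the collagens whose probe sets lie above the median signal of all probe sets. Over all members, 20 of 27 with a mean signal of 7 or above and 11 of 31 below 7 were above 0 in HI15 against HI0. In HI7.5 against HI0 these were 12 of 27 and 7 of 31. The shares of all genes at these signal levels were not taken. The 27 also include LUM, LRAT and RGS5, known beforehand from these HI15 arrays, so nothing is read from these counts.

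COL1A1 and COL1A2 are the chains of type I collagen, the main fibrillar collagen. COL1A1 had lowest, median and highest signals of 10.53, 10.87 and 10.94 in HI0, of 9.92, 10.85 and 11.24 in HI7.5 and of 10.30, 10.97 and 11.77 in HI15. The medians were close, while both meal diets held livers below and above the whole HI0 range. The difference was 0.17 ± 0.22 (SE) in HI15 against HI0 and -0.06 ± 0.22 (SE) in HI7.5 against HI0 (adjusted p = 0.999 for both). COL1A2 differed by 0.06 ± 0.21 (SE) and -0.02 ± 0.21 (SE). For COL4A1 and COL4A2, the basement membrane chains, the differences of HI15 from HI0 were 0.09 ± 0.17 (SE) each. The collagen VI chains COL6A1, COL6A2 and COL6A3, which form beaded microfibrils around cells, were at 0.09, 0.04 and -0.02 in HI15 against HI0, with SEs of 0.17, 0.17 and 0.16.

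COL15A1, a collagen of basement membrane zones that carries sugar chains, had the smallest F p among the collagens (unadjusted p = 0.0493, adjusted p = 1.0). Its lowest, median and highest signals were 4.43, 4.47 and 4.69 in HI0, 3.90, 4.36 and 4.74 in HI7.5 and 4.42, 4.67 and 4.79 in HI15. The HI7.5 range held every HI0 liver and all but 2 of the HI15 livers. The COL15A1 probe set is weak, with a mean of 4.50, and how much of its signal is RNA of the gene was not tested. HI15 exceeded HI7.5 by 0.30 ± 0.12 (SE; unadjusted p = 0.0156, adjusted p = 0.999), and this was the single gene of the 54 outside the stellate group with an unadjusted p under 0.05 in that comparison. With the stellate genes LUM, LRAT and RGS5 there were 4 such members of 58, against 1.61% of all genes higher and 0.946% lower, and nothing is read from that count because of how those genes became known.

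COL14A1, which lies on the surface of fibrils, was higher by 0.26 ± 0.15 (SE) in HI15 than in HI0, with an unadjusted p of 0.0983, and by 0.17 without HI0 replicate 4. COL11A1, a minor fibrillar chain best known from cartilage, was at -0.18 ± 0.10 (SE) in HI15 and -0.20 ± 0.10 (SE) in HI7.5 against HI0, and the latter was -0.08 without the 2 arrays at the extremes of principal component 1. None of these passed adjustment (adjusted p = 0.999).

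The laminins differed by -0.16 to 0.09 in HI15 against HI0. The median was -0.03 in that comparison and 0.00 in HI7.5 against HI0. Over LAMB1 and LAMC1, the only laminins above the median signal, it was 0.09 and 0.05. After quantile normalization the median of all laminins in HI15 against HI0 was 0.02. LAMC1, the gamma chain of most laminins, had lowest, median and highest signals of 9.21, 9.27 and 9.56 in HI0, 9.20, 9.36 and 9.68 in HI7.5, and 9.11, 9.37 and 9.89 in HI15. The lowest and the highest liver were both of the HI15 diet, and the difference from HI0 was 0.09 ± 0.12 (SE; adjusted p = 0.999). LAMB1, its usual beta partner, was at 0.09 ± 0.11 (SE).

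LAMB3, a chain of the laminin under epithelia, had the smallest F p of the group (unadjusted p = 0.426). Its lowest, median and highest signals were 6.99, 7.34 and 7.49 in HI0, 6.77, 7.21 and 7.47 in HI7.5 and 6.83, 7.15 and 7.27 in HI15. LAMA3 and LAMA2, alpha chains best known from epithelia and from muscle, were at -0.02 ± 0.09 (SE) and 0.08 ± 0.11 (SE) in HI15 against HI0, and LAMC3 was at -0.08 ± 0.13 (SE). LAMA4, the alpha chain of vessel walls, varied most, from 6.81 through a median of 6.96 to 7.56 in HI0, from 6.32 through 6.96 to 7.28 in HI7.5 and from 6.46 through 6.86 to 7.53 in HI15. The diets overlapped over most of that range.

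The integrins had medians of 0.02 and 0.01 in HI15 and HI7.5 against HI0, and of 0.09 and 0.08 over those above the median signal. ITGB1, the beta subunit of most collagen and laminin receptors, had lowest, median and highest signals of 9.59, 9.90 and 10.22 in HI0, 9.61, 9.99 and 10.20 in HI7.5, and 9.63, 9.89 and 10.32 in HI15. The 3 ranges were nearly the same, and the difference of HI15 from HI0 was 0.02 ± 0.13 (SE; adjusted p = 0.999). ITGA6, an alpha subunit of laminin receptors, was at -0.12 ± 0.15 (SE). On its other probe set, with a mean signal of 7.98 against 8.51, this difference was 0.04.

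ITGAV, the alpha subunit of receptors that bind vitronectin and release latent TGF-beta, lay between 8.91 and 9.60 in HI0 with a median of 9.04. It lay between 9.02 and 10.34 in HI7.5 (median 9.54) and between 9.11 and 9.98 in HI15 (median 9.31). Both meal diets had higher medians, but their lowest livers fell inside the HI0 range. The difference of HI7.5 from HI0 was 0.36 ± 0.20 (SE; unadjusted p = 0.0853, adjusted p = 0.999), and it was 0.19 without HI7.5 replicate 6, the liver at 10.34. HI15 differed from HI0 by 0.25 ± 0.20 (SE). Its partner ITGB5 was at 0.14 ± 0.13 (SE) in HI15 and -0.06 ± 0.13 (SE) in HI7.5.

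ITGB8, another partner of ITGAV, had the smallest F p among the integrins (unadjusted p = 0.179), with lowest, median and highest signals of 5.97, 6.35 and 6.51 in HI0, 5.84, 6.02 and 6.52 in HI7.5 and 5.93, 6.15 and 6.38 in HI15. Its median was highest without larvae meal, and its difference was -0.22 ± 0.12 (SE) in HI7.5 and -0.15 ± 0.12 (SE) in HI15 against HI0 (adjusted p = 0.999 for both). On its other probe set the same differences were -0.26 and -0.33. ITGB4, the partner of ITGA6 in epithelia, was at -0.17 ± 0.10 (SE) in HI15.

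Genes that process, cut or signal through the matrix were taken from 5 lists, and limma called 0 in any of them. Of 29 symbols of genes that modify, cut or cross-link collagen, 19 were measured, with a median of 0.05 in HI15 against HI0. None was at an unadjusted p under 0.05 in any of the 3 comparisons. The lysyl hydroxylase gene PLOD2 and the procollagen protease gene ADAMTS3 had the smallest F p, and each was at 0.27 in HI7.5 against HI0. Of 24 matrix proteases and inhibitors, 15 were measured, and MMP28, a metalloproteinase, was the one with an unadjusted p under 0.05, at -0.18 ± 0.08 (SE; limma, unadjusted p = 0.0229) in HI7.5 against HI0. MMP7, the second by F p, was at -0.29 ± 0.16 (SE) there, on a weak probe set with a mean of 5.08.

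Of 40 matrix glycoproteins and proteoglycans, 28 were measured. AGRN, a heparan sulphate proteoglycan of basement membranes, was at 0.26 ± 0.12 (SE; unadjusted p = 0.0406) and EPYC, a small proteoglycan of cartilage, at -0.30 ± 0.12 (SE; unadjusted p = 0.0252) in HI15 against HI0. The EPYC probe set is weak, with a mean of 4.77. Of 20 symbols of TGF-beta signalling, 9 were measured, with none at an unadjusted p under 0.05. SKI, a repressor of the pathway, was at 0.16 and CYR61, a matrix signalling protein, at -0.02 in HI15 against HI0. CYR61 was at 0.42 ± 0.35 (SE) in HI7.5 against HI0 and at -0.44 ± 0.35 (SE) in HI15 against HI7.5. Of 22 symbols of integrin adaptors, 17 were measured. CD151, a membrane partner of laminin-binding integrins, was at -0.26 ± 0.09 (SE, limma unadjusted p = 0.0107) in HI15 against HI7.5. PARVB, a parvin that links integrins to actin, was at -0.22 ± 0.11 (SE) in HI15 against HI0.

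Livers of the same diet differed from each other in many of these genes. The SD within diets was 0.233 log2 units in the median member and 0.207 in the median of all genes. By group the median SD was 0.234 for collagens, 0.193 for laminins, 0.232 for integrins and 0.342 for the 4 stellate genes. Of the 27 members with a mean signal of 7 or above, 10 (37.0%) had an SD above the 90th percentile of all genes, and of the 31 below 7, 2 (6.45%) did. The SD of a probe set moves with its signal and probes, so these shares are a description.

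COL8A1, a short-chain collagen that forms networks around vessels, had the largest SD within diets, 0.559. Its lowest, median and highest signals were 6.57, 6.66 and 7.57 in HI0, 5.63, 6.82 and 7.21 in HI7.5, and 6.59, 6.79 and 8.29 in HI15. The span from lowest to highest liver was 6.32-fold, and HI15 exceeded HI7.5 by 0.39 ± 0.28 (SE; adjusted p = 0.999), or by 0.14 without HI15 replicate 6. COL12A1, which lies on collagen fibrils, spanned 3.29-fold with an SD of 0.48, and COL1A1 3.61-fold with 0.416. ITGA8, an integrin subunit of stellate cells and smooth muscle in mammals, spanned 2.50-fold, with lowest, median and highest signals of 7.73, 8.19 and 8.79 in HI0, 7.65, 8.13 and 8.65 in HI7.5 and 8.13, 8.34 and 8.97 in HI15. ITGB2, the beta subunit of leukocyte integrins, spanned 2.62-fold.

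A few livers stood at the ends of many members. HI15 replicate 6 was the highest of the 18 arrays for 16 of the 58 genes, and for 12 of the 27 with a mean signal of 7 or above. These were COL1A1, COL1A2, COL4A1, COL4A2, COL5A1, COL6A1, COL6A2, COL12A1, LAMB1, LAMC1, ITGA8 and ITGB1. HI7.5 replicate 5 was the lowest for 10 of the 58 and for 7 of those 27, among them COL1A1, COL1A2 and COL6A1 to COL6A3. How often these arrays were highest or lowest over all genes was not counted, so the counts are not read as particular to matrix genes. In HI15 replicate 6 the mean of the erythrocyte markers was 1.06 above that of HI0, that of the endothelial markers 0.36 and that of the other stellate markers 0.33, and the part of these cells in its matrix signals was not tested.

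**Figure D3:**
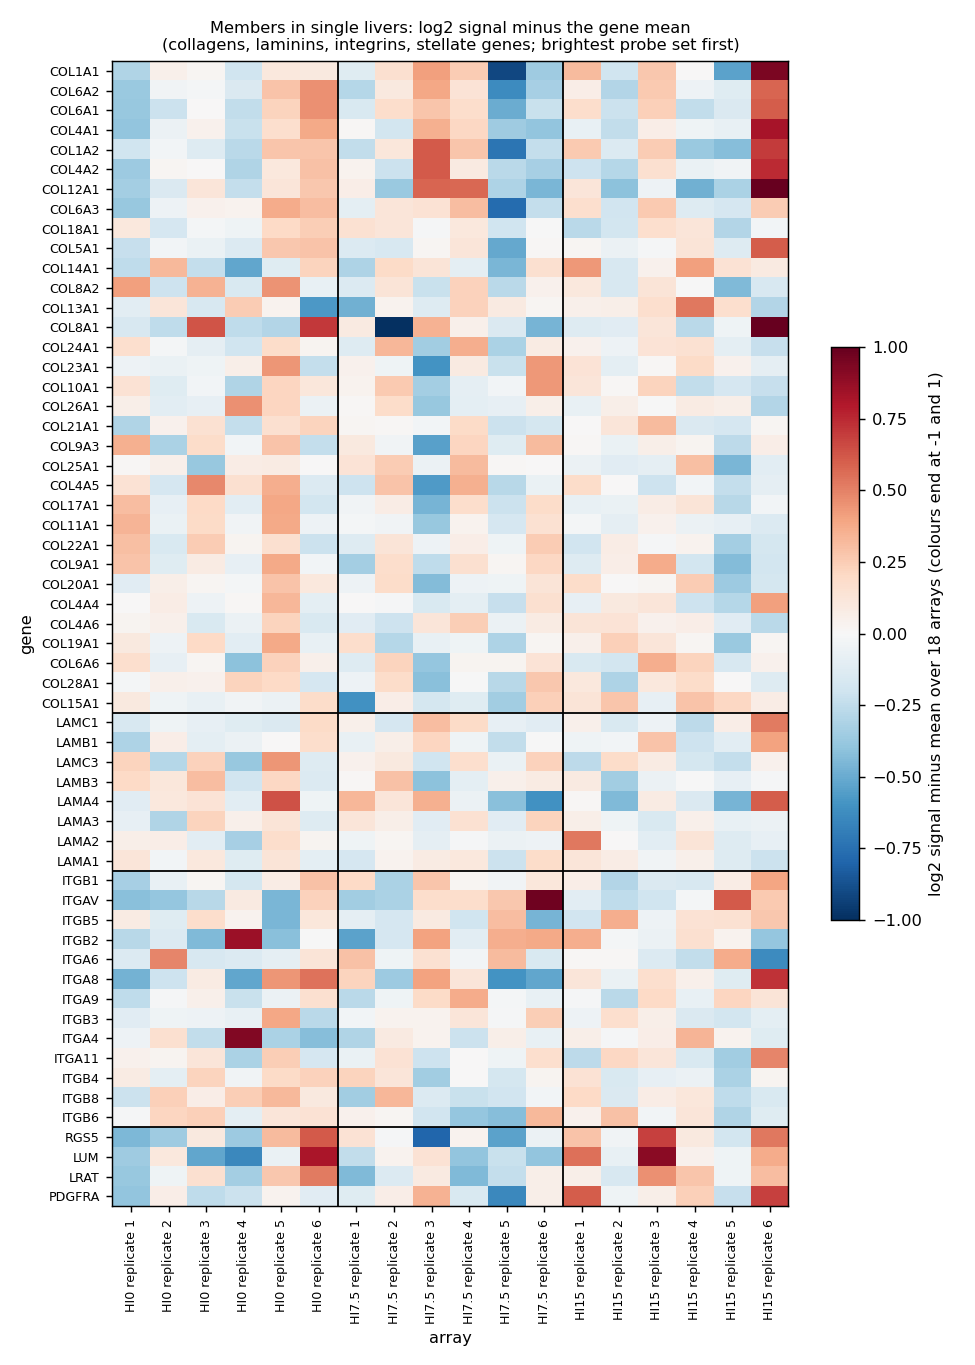
Log2 signal minus the gene's mean over all arrays (colour) for the 58 genes (lines from top to bottom: collagens, laminins, integrins, stellate genes, each from the strongest to the weakest probe set) in the 18 livers (columns, by diet). HI15 replicate 6 is red and HI7.5 replicate 5 blue over most of the upper collagens, while the lower collagens follow other livers, such as HI0 replicate 5 (red) and HI7.5 replicate 3 (blue).

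The chains of collagen I, of collagen IV and of collagen VI correlated strongly over the livers. So did the leukocyte genes ITGB2 and PTPRC, and the other pairs less so. Of 20 pairs of partner genes or genes of 1 cell type, 14 had both genes measured; COL3A1, COL5A2, ITGA1 and ITGAM were not analysed here. The correlation over the 18 arrays passed for 11 of the 14 pairs by Pearson's r and for 10 by Spearman's rho, with permutation p-values adjusted over the 14. It passed for 9 pairs on residuals from the diet means, and for 11 without the 2 arrays farthest from the median of the first gene. The 11 by Pearson's r include LUM with PDGFRA, LRAT with RGS5 and LRAT with LUM, which are taken up below. The share of other gene pairs that would pass on these arrays was not taken, so nothing is read from these counts.

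COL4A1 and COL4A2, which are neighbours in the chicken genome, correlated at r = 0.95 (rho = 0.96), and COL6A1 and COL6A2, also neighbours, at r = 0.95 (rho = 0.94). COL1A1 and COL1A2 correlated at r = 0.92 (rho = 0.89), and COL6A1 and COL6A3 at r = 0.86 (rho = 0.86). For these 4 pairs the adjusted permutation p of r was 2.8e-05, from the smallest p that 100000 permutations can give, 1e-05, and that of rho was 7e-05. Without the 2 farthest arrays r was 0.93, 0.92, 0.86 and 0.90 in the same order. On residuals from the diet means r was 0.96, 0.96, 0.93 and 0.88.

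The pairs with a laminin had lower values of r. COL4A1 and LAMB1 correlated at r = 0.75 (adjusted permutation p = 0.000863) with rho = 0.58 (0.0201), and r was 0.55 without the 2 farthest arrays. LAMB1 and LAMC1 had r = 0.66 (adjusted permutation p = 0.00457) but rho = 0.43 (0.0894), and without HI15 replicate 6 r was 0.48 (0.0685). LAMA4 and LAMC1 did not pass, with r = 0.43 (adjusted permutation p = 0.0846).

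The 4 stellate genes were known beforehand from these HI15 arrays, and a difference between diets that genes share can raise r over all diets. Nothing is therefore read from passes of pairs among these 4 genes over all arrays. LRAT and LUM had r = 0.72 (adjusted permutation p = 0.0015), and 0.68 (0.0113) on residuals from the diet means. LRAT and RGS5 had r = 0.60 (0.0135), which fell to 0.50 (0.0786) on residuals and to 0.39 (0.141) without the 2 farthest arrays. With any 1 array left out it was 0.53 to 0.74. LUM and PDGFRA had r = 0.52 (0.0338) with rho = 0.67 (0.00676), and r was 0.78 (0.000887) without the 2 farthest arrays. On residuals r was 0.38 (0.104), and without HI15 replicate 1 it was 0.44 (0.0885); it was also not called without HI0 replicate 1, 3 or 4 or HI15 replicate 6. COL1A2 and LUM had r = 0.53 (0.0321), with 0.51 (0.0511) without HI0 replicate 4 and 0.50 (0.062) without HI15 replicate 6. LRAT and PDGFRA had r = 0.47 (0.0537), which did not pass, and rho = 0.51 (0.045), which did. Their r was 0.62 (0.02) without the 2 farthest arrays, and it also passed without HI0 replicate 3 (0.51), HI0 replicate 6 (0.57) or HI15 replicate 1 (0.51).

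The pairs with an integrin gave different values. ITGAV and its partner ITGB5 showed no linear relation (r = -0.00, adjusted permutation p = 0.993; rho = 0.26), though without HI7.5 replicate 6, the liver with the highest ITGAV, r was 0.45. ITGB2 followed PTPRC, the leukocyte common antigen, at r = 0.88 (adjusted permutation p = 2.8e-05; rho = 0.84), and r was 0.81 without HI0 replicate 4. That liver had the highest ITGB2, at 9.38, and the highest ITGA4, another leukocyte subunit, at 7.81. The means of its macrophage and lymphocyte markers were 0.65 and 0.61 above the HI0 mean.

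**Figure D4:**
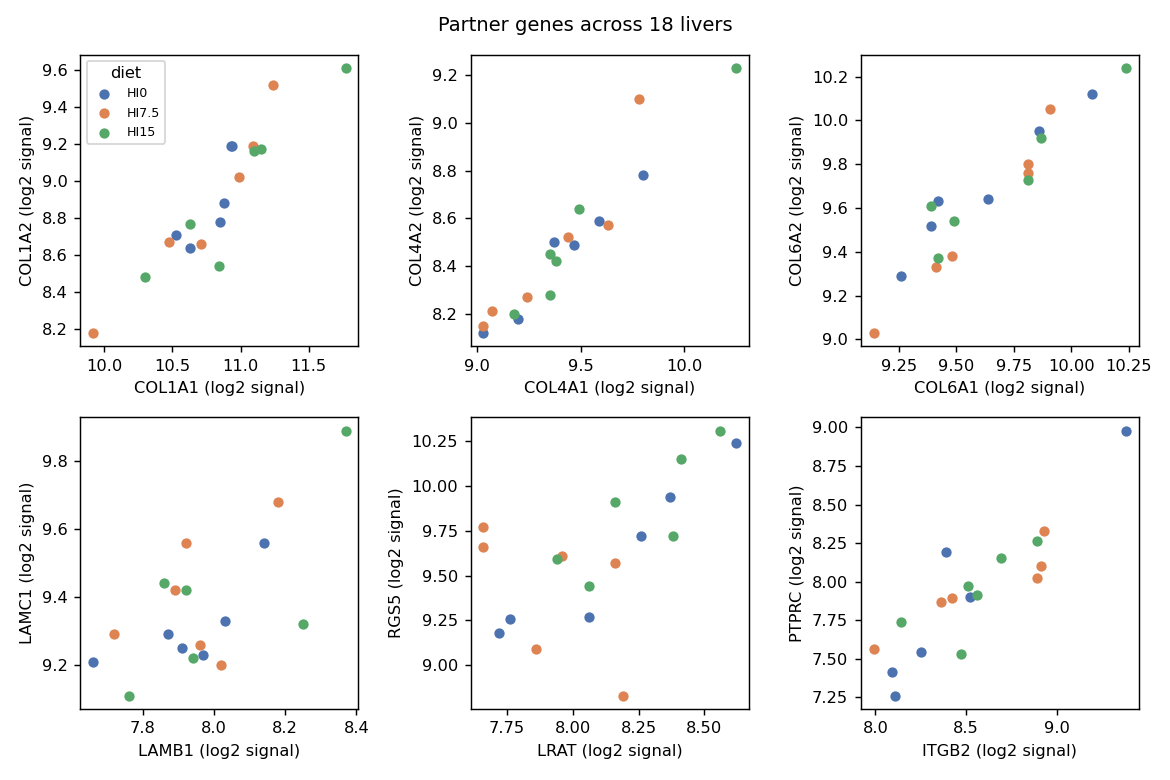
Log2 signals of 6 pairs of genes against each other (both axes) in the 18 livers, coloured by diet. COL1A1 with COL1A2 (r = 0.92), COL4A1 with COL4A2 and COL6A1 with COL6A2 (both r = 0.95) and ITGB2 with PTPRC (r = 0.88) lie along a line with all diets mixed, while LAMB1 with LAMC1 (r = 0.66) and LRAT with RGS5 (r = 0.60) scatter.

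COL1A1 was then correlated with every other gene, a step chosen after the data were seen. The highest r belonged to COL1A2 (0.92), COL6A2 (0.87), COL6A1 (0.85), C7, a complement protein (0.84), and ADAMTS2, which trims the end of type I procollagen (0.83). COL6A3 (0.82) and PDGFRA (0.82) came next, then DSEL, PLEKHH2 and LTBP1, a binding protein of latent TGF-beta (0.81). Members thus held 5 of the first 10 places.

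Leaving out each array in turn kept COL1A2 first in 17 of 18 cases, COL6A2 within the first 10 in all 18 and COL6A1 in 17. Without both arrays farthest from the median of COL1A1, HI15 replicate 6 and HI7.5 replicate 5, COL1A2 stayed first with r = 0.86, while COL6A2, COL6A3 and COL6A1 came 11, 12 and 15, and PDGFRA fell to place 125 with r = 0.61. Members then held 1 of the first 10 places, so the collagen VI places rest in part on those 2 livers.

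After adjustment over all of these genes, 10 genes (0.0868%) passed with positive r, 4 of them the members COL1A2, COL6A1, COL6A2 and COL6A3 (adjusted permutation p = 0.0461), and 0 with negative r. The number of calls was not stable: it was 0 without HI7.5 replicate 3 or 5 or HI15 replicate 4 or 6, and 22 without HI15 replicate 5. It was 8 with 1000000 permutations. PDGFRA and COL4A1 did not pass (adjusted permutation p = 0.0576 and 0.0532).

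The median r with COL1A1 was 0.46 over the 26 other members with a mean signal of 7 or above, 0.08 over the 31 below 7 and -0.01 over all genes. It was 0.49 for the 4 stellate genes, 0.46 for the 11 other stellate and fibroblast markers, 0.40 for endothelial markers, 0.00 for hepatocyte markers and -0.26 for macrophage markers. By group it was 0.13 for the other collagens, 0.16 for laminins and 0.10 for integrins. The 19 collagen processing genes had a median r of 0.22 and ran from -0.69 for COLGALT1 to 0.83 for ADAMTS2. Among them SERPINH1, the collagen chaperone, had r = 0.68 and LOXL2, a cross-linking oxidase, 0.78. Neither of these passed (adjusted permutation p = 0.28 and 0.0756). These genes share 18 arrays and their contrast, and the medians describe these livers.

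Many collagens with weak signals followed the contrast of the array. Over the 18 arrays, 17 of the 58 members correlated negatively with the array's SD at an adjusted permutation p under 0.05, against 19.7% of all genes. LAMC1 (r = 0.64) was the 1 member that correlated positively, against 16.9% of all genes. The 17 were 13 collagens, LAMA1, LAMB3, LAMC3 and ITGB6, and 14 of them had a mean signal below 7. The share among all genes with a mean below 7 was not taken, so the count is not read as a trait of collagens. COL17A1, a collagen of epithelial attachment, had r = -0.93 and COL11A1 r = -0.81 (adjusted permutation p = 0.000442 for both). The liver with the widest array, HI7.5 replicate 3, was the lowest of all for 11 of the 31 members below 7, and the narrowest, HI0 replicate 5, was the highest for 7 of them. The same counts over all genes were not taken. When the arrays were quantile-normalized, 2 members correlated with the array's SD. The share of all genes in that setting is not given here, so nothing about the members is read from this count. None of the 4 members called with COL1A1 was called with the array's SD. COL1A1 itself had r = 0.01 with the array's SD, which leaves genes that follow it closely little room for such a call, so nothing is read from this. How much of the signal of the weak probe sets is RNA of these genes was not tested, since the table holds no detection values.

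**Figure D5:**
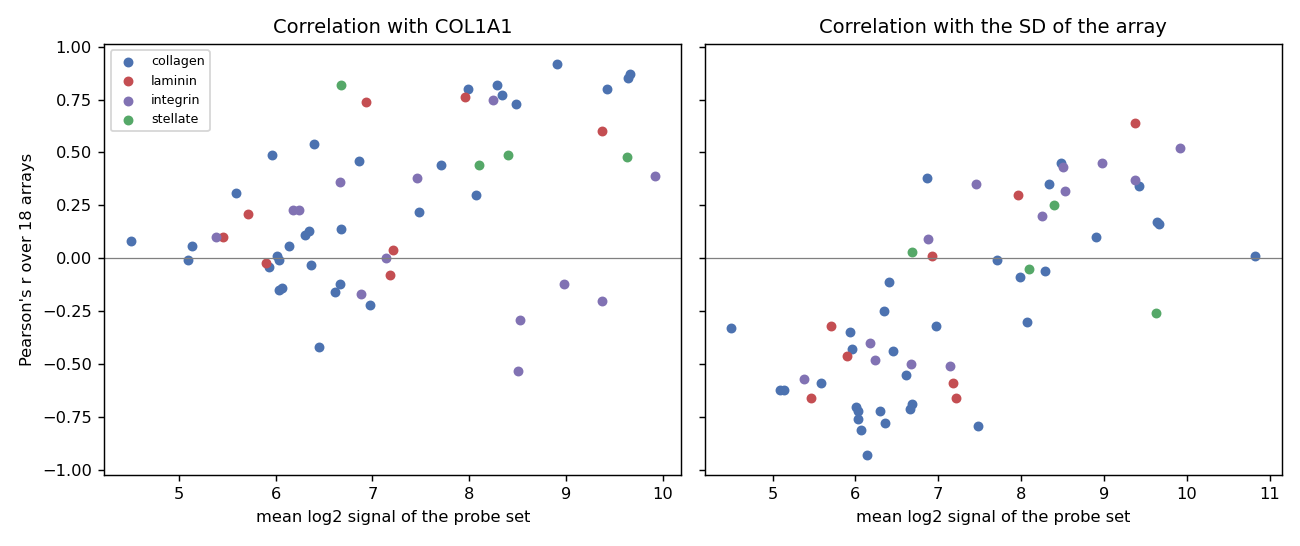
Pearson's r over 18 arrays (vertical axis) of each member with COL1A1 (left) and with the array's SD (right), against the probe set's mean log2 signal (horizontal axis), coloured by gene group. On the left the collagens COL1A2, COL6A2 and COL6A1 reach 0.92, 0.87 and 0.85, and on the right most members below a signal of 7 are negative, down to -0.93 for COL17A1.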

How the data were processed

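The authors deposited log2 signals. Per the submitters' processing notes, Affymetrix Expression Console 1.4 and RMA made them. This method subtracts background, brings arrays to 1 scale and summarises probes, which removes differences in overall brightness. The table holds 18226 probe sets on 18 arrays. Scanner files and detection values were not used here, and the number of arrays limits the precision. Of the probe sets, 12300 have 1 symbol in the platform annotation. Of the 58 genes, 55 matched RefSeq (assembly GRCg7b) by gene identifier, with 0 symbols changed, and it also gave the genome neighbours.

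The fit had a mean for each diet and used all arrays (limma 3.58.1, R 4.3.3; lmFit and eBayes, two-sided), with Benjamini-Hochberg adjustment over all probe sets and calls at 0.05. Correlations used 100000 two-sided permutations. Confidence intervals are those of the moderated fit. The limma fit was tested on simulated data with 50 probe sets changed at each size in HI15. In HI15 against HI0 it called 66% of the 1.5-fold, 88% of the 2-fold and 100% of the 3-fold and 4-fold changes, and 4.3% of its calls were false. The simulated noise was independent between probe sets, unlike that of real arrays. Changes of all sizes were planted together, which eases the adjusted threshold for the 1.5-fold ones. The changed probe sets were drawn at random, while the stellate genes had a median SD within diets of 0.342, against 0.207 over all genes. These rates therefore need not hold for a member that changes alone.

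The genes, lists and tests were chosen with earlier results of these data known. Named genes are the 4 stellate genes, per group the 5 with the highest mean signal, the 3 with the largest SD within diets and the 3 with the smallest F p, and the genes of the pairs. For each neighbouring list the 2 with the smallest F p were named, and other names were chosen after their values were seen. Alternatives were quantile normalization, array medians subtracted, only the stronger probe sets, another variance prior, array weights, the last number of the title as a covariate or in runs of 6 as a block, fits of the compared diets alone, all probe sets of a gene averaged, and arrays left out. Replicates are numbered in order of accession, and the labels state no pairing. Each run of 6 of the last title number nevertheless holds an array of each diet, and these arrays carry the same replicate number. The labels give the run of 6 no meaning, so whether it is a block of the trial is not known.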

Additional observations from a re-analysis of the deposited data

Results flagged for a closer look

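In 7 of 93 groups of 6 livers tested, over 31 members, 1 liver stood apart from the other 5 by Dixon's test at the 95% level. Chance gives about 1 in 20 for genes chosen without regard to their spread. These members were chosen in part for a large SD within diets, which an outlying liver raises, so nothing is read from the count. In 4 of the 7 groups the liver was HI15 replicate 6. Its COL8A1 signal was 8.29, with the other HI15 livers between 6.59 and 6.98. COL12A1 was 9.58 there, with the others between 7.86 and 8.46, COL4A1 was 10.25, with the others between 9.18 and 9.49, and ITGA8 was 8.97, with the others between 8.13 and 8.42.

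The other 3 were HI0 livers. ITGB2, the leukocyte integrin subunit, was 9.38 in replicate 4, with the others between 8.09 and 8.52. LAMA4, the laminin alpha chain of vessels, was 7.56 in replicate 5, with the others between 6.81 and 7.06. LAMC1 was 9.56 in replicate 6, with the others between 9.21 and 9.33.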

How the results depend on the processing

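The count of 0 members called by limma held in all 5 tests under the alternatives run for them, including the replicate block (the run of 6 of the last title number), where 0 were called as well, and when each array was left out. Fitting only the 2 diets compared was run for the 3 pairwise comparisons alone. The median within-diet SD of the collagens was 0.189 after quantile normalization (0.234 as reported). The correlation of ITGAV with ITGB5 turned from -0.00 to 0.00 on residuals from the diet means, to 0.06 with array medians subtracted and to 0.45 without the 2 arrays farthest from the ITGAV median, and ran from -0.17 to 0.45 when 1 array was left out. Pairs called ran from 8 to 12 when 1 array was left out, with the lowest number without HI15 replicate 6. Genes called with COL1A1 (10) numbered 16 on residuals, 0 with array medians subtracted, 0 without the 2 farthest arrays, 0 without the 2 arrays at the extremes of principal component 1 and 49 with the array SD regressed out, and from 0 to 22 with 1 array left out. Members among the 10 genes closest to COL1A1 (5) numbered 1 without the 2 farthest arrays and from 3 to 7 with 1 array left out. Members called with the array SD (18) numbered 2 after quantile normalization, and the share of all genes in that setting is not given here. The alternatives for COL1A1 and for the array SD were chosen after seeing the data, and the causes of these shifts were not tested. LAMA4 and LAMC1 passed after quantile normalization, at r = 0.53 (adjusted permutation p = 0.0316).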

Other observations

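Markers of smooth muscle and pericytes had negative differences on both meal diets: 4 of 7 were measured, and all 4 were below 0 in HI15 against HI0 (median -0.22) and in HI7.5 against HI0 (median -0.13), with 0 called by limma and 1 at an unadjusted p under 0.05 in the latter. MYH11, 1 of the 4, was at -0.03 in HI15 against HI0. RGS5 and ITGA8, members described above as genes of pericytes and of smooth muscle, were at 0.25 and 0.17 there and at -0.18 and -0.10 in HI7.5 against HI0. Over all genes, 51.8% and 50% lay above 0 in the 2 comparisons. These comparisons share the HI0 arrays. Erythrocyte markers had medians of 0.26 and 0.21 over 6 of 10 measured, with 0 called and 0 at an unadjusted p under 0.05. The second probe set of COL1A2, with a mean of 4.80 against 8.91 for the one reported, gave 0.19 in HI15 against HI0 in place of 0.06.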
